A study of Mus musculus with 20 samples.

Results

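The 10 genes described here encode proteins of the plasma lipoproteins made in liver or of their assembly. They are the apolipoprotein genes Apoa1, Apoa2, Apoa4, Apoa5, Apob, Apoc1, Apoc2, Apoc3 and Apoe, and Mttp, the gene of the microsomal triglyceride transfer protein. They were matched by symbol in a table of 55487 gene identifiers, and all 10 were found and passed the filter on low counts in every comparison. Liver RNA of 20 female C57BL/6J mice, killed at 28 weeks of age, was sequenced with 1 library per mouse. From 8 weeks of age, mice ate chow or a high-fat diet (HFD) for 10 weeks. For the next 10 weeks chow-fed mice stayed on chow, while the obese mice received isocaloric HFDs in which 50% of the protein came from salmon fishmeal, salmon filet or beef. All HFD groups shared the first period of HFD. By the study's diet composition, the supplemented HFDs also differed in cholesterol, highest with fishmeal, and in soybean oil and fatty acids. Protein source cannot be told apart from these differences. No group was kept on the first HFD throughout, so HFD versus chow compares the 15 mice on the protein-supplemented HFDs with the 5 chow-fed mice.

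The groups held 5 mice each by the column names of the count table. Mouse 31 is beef by its column and salmon filet by its sample label, so the labels give 6 salmon filet and 4 beef mice. It was kept with beef here, its values are given by its number, and the comparisons with salmon filet or beef were repeated with it as labelled. HFD versus chow and fishmeal versus chow do not depend on it. Counts per library ranged from 42526234 to 70266136. Protein coding genes took 93.2% to 95.6% of them, apart from 84.3% in mouse 35 (beef). Levels are CPM (counts scaled to library size with TMM factors) or, where genes are compared with each other, TPM (counts scaled to transcript length and library size). In a whole liver, fewer cells of a type and less RNA per cell cannot be told apart.

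The liver packs triglyceride and cholesteryl ester into very-low-density lipoproteins (VLDL) around a single molecule of ApoB, to which Mttp transfers lipid while the protein enters the endoplasmic reticulum. ApoA1 and ApoA2 are the main proteins of high-density lipoprotein (HDL), and ApoE is a ligand for clearance of remnants by the LDL receptor. ApoC2 activates lipoprotein lipase, ApoC1 and ApoC3 slow lipolysis and clearance, ApoA5 favours lipolysis, and ApoA4 is made by intestine and, in mice, by liver.

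Of the members, 4 lie in a cluster on chromosome 9 (GRCm38, GENCODE M21): Apoa1 at chr9:46228580-46230466 on the plus strand, Apoc3 at chr9:46232933-46235636 on the minus strand, Apoa4 at chr9:46240696-46243459 and Apoa5 at chr9:46268633-46271919, both on the plus strand. Apoe (chr7:19696109-19699188), Apoc1 (chr7:19689481-19692660) and Apoc2 (chr7:19671579-19677941) lie close together on the minus strand of chromosome 7. Apob is at chr12:7977648-8016835, Apoa2 at chr1:171225054-171226379 and Mttp at chr3:138089854-138144968. RefSeq promoter windows (GRCm38.p6, 250 bases before to 50 bases after a start) were at hand for 8 of the 10 genes. The bases before the gene start are shown for the plus-strand genes of the chromosome 9 cluster, because Apoa4 had the largest difference between HFD and chow and Apoa1 is its abundant neighbour. Capitals mark a TATA box (TATAAA), an E-box (CACGTG) or an HNF4A-type motif (CAAAGTTCA), each searched on both strands.
Apoa1, chr9:46228380-46228579, plus strand: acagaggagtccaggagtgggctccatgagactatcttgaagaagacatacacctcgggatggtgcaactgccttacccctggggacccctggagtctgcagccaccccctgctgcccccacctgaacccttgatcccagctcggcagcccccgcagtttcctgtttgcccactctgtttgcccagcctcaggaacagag
Apoa4, chr9:46240594-46240695, plus strand: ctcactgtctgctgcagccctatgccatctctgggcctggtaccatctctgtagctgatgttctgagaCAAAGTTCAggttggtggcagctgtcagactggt
Apoa5, chr9:46268383-46268632, plus strand: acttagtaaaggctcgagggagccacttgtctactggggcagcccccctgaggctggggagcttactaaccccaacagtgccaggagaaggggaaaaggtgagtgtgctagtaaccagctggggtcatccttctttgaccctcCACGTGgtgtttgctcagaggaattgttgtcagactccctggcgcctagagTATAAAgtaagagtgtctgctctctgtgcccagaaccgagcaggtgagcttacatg
The HNF4A-type motif is in 0.39% of the 32851 promoter windows of 300 bases and, among the members, in that of Apoa4. The E-box is in 7.15% of all windows and in that of Apoa5, and TATAAA is in 13.6% and in windows of Apoa2, Apoa5, Apob and Apoe. A second HNF4A-type motif, CAAAGTCCA, is in 0.475% of windows and in none of the members'. The nuclear receptor half-site AGGTCA is in 16.3% and in windows of Apoa2 and Apoc2. These matches describe letters only.

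Together the 10 genes took 4.56% to 7.33% of all TPM in the 20 libraries. Per length, Apoa2 was the most abundant (20707 ± 2384 TPM, SD, n = 20), followed by Apoe (16920 ± 4479), Apoa1 (11647 ± 3082) and Apoc1 (9438 ± 1554). Apoc3 followed at 1716 ± 373 TPM, Apob at 1135 ± 181, Apoa5 at 657 ± 149, Apoa4 at 253 ± 84.7 and Mttp at 168 ± 23.6. Apoc2 was lowest at 17.5 ± 4.68 TPM. Within a library, Apoa2 exceeded Apoe in 16 of 20, Apoe exceeded Apoa1 in 19, Apoa1 exceeded Apoc1 in 15, Apoc3 exceeded Apob in 16 and Apoa4 exceeded Mttp in 17, so the order of these neighbours was not the same in every mouse. Between Apoc1 and Apoc3, and between Mttp and Apoc2, the ranges over the 20 libraries did not overlap.

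**Figure D1:**
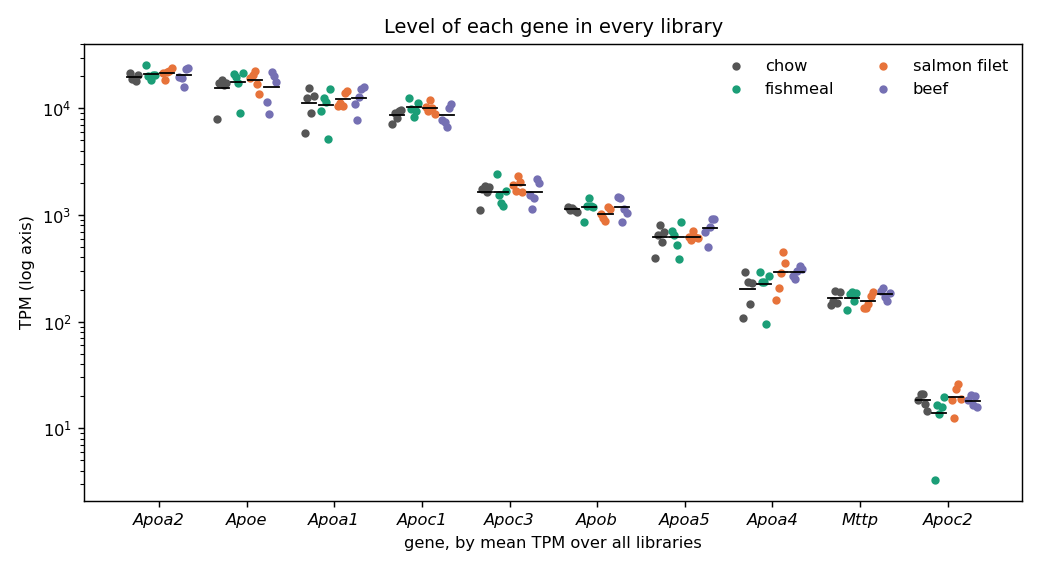
TPM of each gene (log axis) in every library, with genes ordered by their mean over the 20 libraries; points are mice, coloured by diet group, and short lines are group means (5 mice each, mouse 31 with beef). The genes range from Apoa2 at 20707 TPM to Apoc2 at 17.5 TPM, and for every gene the HFD mice overlap the chow-fed mice.

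The annotation limits what can be read from some of these levels. Of Apoc2's 813 exon bases, 79.5% also lie in exons of Gm44805, a protein coding model on the same strand that received 0 to 7 counts per library. How reads in overlapping genes were counted is not given in the sources used here, so the level of Apoc2 is uncertain. Apoa4 shares 34.9% of its exon bases with Gm47528 and 34.8% with Gm10680 on the other strand, Apoa5 shares 20.8% with Gm47544, and Mttp shares 2.1% with Gm43691 and 7.4% with Trmt10a. The library kit marked strand, but the strand setting of the counting is not given.

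The first comparison asked how the liver of mice on any of the HFDs differed from that of chow-fed mice. No member passed the test: edgeR's quasi-likelihood test with Benjamini-Hochberg adjustment called 0 of the 10 at an adjusted p under 0.05, against 9.75% of the 17120 genes tested (777 higher and 892 lower). At an unadjusted p under 0.05 it gave 0 members, against 24.4% of all genes. DESeq2 called 0 members, with 1 (Apoa4) at an unadjusted p under 0.05. The fitted log2 fold changes of the members ran from -0.05 to 0.48 with a median of 0.152, and 9 were above 0 and 1 below. The median over all genes tested was 0.005. Several members were low in the same libraries, as described below, so the directions of the members are not independent of each other.

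Apoa4 had the largest difference of the members. Its levels in the chow-fed mice were 79.2, 193, 172, 99.8 and 161 CPM (mice 1, 2, 5, 7 and 10). In the 15 HFD mice they ran from 69.9 CPM (mouse 16, fishmeal) over a median of 189 to 310 (mouse 26, salmon filet). The groups overlapped, although 13 of 15 HFD mice were above the chow mean. The means were 197 ± 62.3 CPM (SD, n = 15) in HFD and 141 ± 48.9 (n = 5) in chow, a log2 fold change of 0.48 ± 0.249 (SE, 95% interval -0.03 to 1.00, edgeR adjusted p = 0.24). Leaving out 1 mouse at a time gave 0.33 to 0.62, lowest without chow-fed mouse 1.

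Among the HDL proteins, Apoa1 was at 5827 ± 1454 CPM (SD, n = 15) in HFD and 5355 ± 1868 (n = 5) in chow. The 5 chow-fed mice were at 2961, 5631, 7782, 4150 and 6252 CPM, which spans most of the HFD range of 2582 to 8099 (median 5761). Its log2 fold change was 0.12 (95% interval -0.31 to 0.55, edgeR adjusted p = 0.776), and it was -0.03 without mouse 1. Apoa2 was at 4542 ± 741 CPM in HFD and 4084 ± 448 in chow, a log2 fold change of 0.15 (-0.08 to 0.39, edgeR adjusted p = 0.439). Both genes were above the chow mean in 10 of 15 HFD mice.

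For the proteins that form VLDL the groups lay close together. Apob was at 6306 ± 950 CPM in HFD and 6086 ± 510 in chow, and the fold of 1.04 had a 95% interval of 0.885 to 1.21 (edgeR adjusted p = 0.827). The chow-fed mice were at 6726, 5575, 6532, 5849 and 5747 CPM, inside the HFD range of 4914 to 7919 (median 6215). Mttp was at 418 ± 55.5 CPM in HFD and 401 ± 65.6 in chow, with a log2 fold change of 0.06 (95% interval -0.16 to 0.28, edgeR adjusted p = 0.779). Its chow values were 362, 354, 489, 346 and 453 CPM, and its HFD values ran from 304 to 499 (median 414).

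The exchangeable proteins that act on lipolysis and clearance also overlapped between diets. Apoe was at 15019 ± 4554 CPM in HFD (7449 to 21940, median 15580) and 12738 ± 3475 in chow, where the mice were at 6819, 13563, 15942, 13161 and 14203. Its log2 fold change was 0.24 (95% interval -0.23 to 0.71, edgeR adjusted p = 0.567). Apoc1 was at 2895 ± 615 CPM in HFD and 2497 ± 228 in chow (log2 fold change 0.21, -0.07 to 0.49), Apoc3 at 712 ± 196 and 642 ± 116 (0.15, -0.21 to 0.51), and Apoa5 at 680 ± 174 and 602 ± 159 (0.18, -0.20 to 0.55). Apoc2, an activator of lipoprotein lipase, was at 5.55 ± 1.58 and 5.75 ± 0.914 CPM (-0.05, -0.51 to 0.41). The edgeR adjusted p-values of these 4 genes were 0.355, 0.651, 0.602 and 0.916, in the order given.

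**Figure D2:**
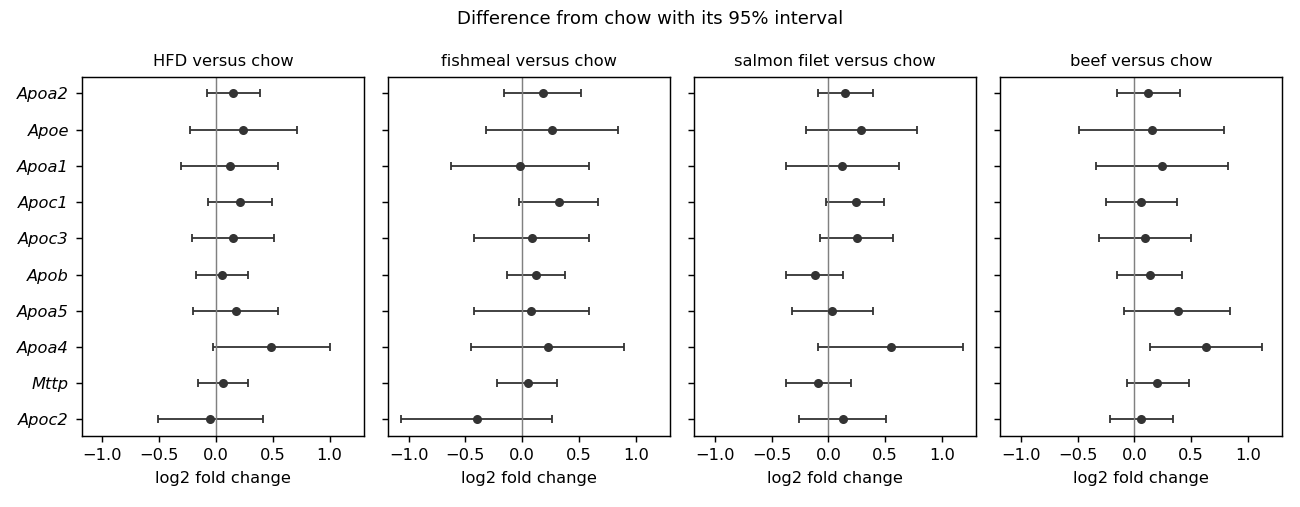
Fitted log2 fold change of each gene against chow (points) with its 95% interval (bars), for all HFD mice together (15 mice) and for each protein source (5 mice each), against the same 5 chow-fed mice. The interval for Apoa4 in beef versus chow lies above 0, at a log2 fold change of 0.63, and the intervals of all other genes and comparisons include 0.

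Each protein source was then compared with chow; the 3 comparisons share the chow-fed mice. In fishmeal versus chow, edgeR called 0 of 10 members, against 3.38% of 16471 genes, with 0 at an unadjusted p under 0.05. DESeq2 called 0, with 1 unadjusted. In salmon filet versus chow 0 of 10 were called, against 4.42% of 16475 genes, with 0 unadjusted by edgeR and 1 by DESeq2, which also called 0. In beef versus chow 0 of 10 were called by either tool, against 3.05% of 16339 genes, and 1 member, Apoa4, had an unadjusted p under 0.05 by each. The median log2 fold changes of the members were 0.104, 0.139 and 0.142 in these comparisons, against -0.006, 0.012 and -0.005 over all genes tested.

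In the beef mice Apoa4 was at 189, 181, 252, 238 and 236 CPM for mice 31, 32, 35, 39 and 40. The mean was 219 ± 32.0 CPM (SD, n = 5), and 5 of 5 were above the chow mean of 141 ± 48.9, but mouse 32 and mouse 31 lay below the highest chow-fed mouse (193). The log2 fold change was 0.63 ± 0.224 (SE), or 1.55-fold (95% interval 1.1 to 2.17, unadjusted p = 0.0156, edgeR adjusted p = 0.155). With offsets for GC content and length fitted to every library, a setting chosen after the data were seen, the log2 fold change was again 0.63 (SE 0.156) and the edgeR adjusted p was 0.0336. Over the other alternatives, with leaving out 1 mouse at a time, the adjusted p ran from 0.0646 to 0.315. In salmon filet, Apoa4 was at 106, 156, 210, 310 and 244 CPM (mice 22, 23, 25, 26 and 27; 205 ± 78.5, SD), with a log2 fold change against chow of 0.55 (-0.09 to 1.19, edgeR adjusted p = 0.277). In fishmeal it was at 259, 158, 164, 69.9 and 182 CPM (mice 12, 13, 14, 16 and 20; 167 ± 67.4), with 0.23 (-0.45 to 0.90, edgeR adjusted p = 0.786). The fishmeal values included both the lowest of all 20 mice and the second highest, so the group spanned most of the range.

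The protein sources were finally compared with each other. Of the 10 members 0 were called in fishmeal versus salmon filet (0.17% of 16494 genes called), 0 in fishmeal versus beef (0.0245% of 16304) and 0 in salmon filet versus beef (0% of 16212). The unadjusted counts under 0.05 were 0, 0 and 1 by edgeR and 1, 0 and 3 by DESeq2, which called 0 members as well. In salmon filet versus beef edgeR called 0 genes of any kind, with 796 at an unadjusted p under 0.05, and DESeq2 called 6.

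The member behind the single unadjusted edgeR count was Mttp. Its levels were 304, 351, 370, 406 and 443 CPM in salmon filet (mice 22, 23, 25, 26 and 27) and 469, 499, 486, 383 and 481 in beef (mice 31, 32, 35, 39 and 40). The groups overlapped through mouse 39, the lowest in beef, and 0 of 5 salmon filet mice were above the beef mean. The means were 375 ± 52.9 and 464 ± 46.4 CPM (SD, n = 5 each), with a log2 fold change of -0.30 (95% interval -0.55 to -0.05, unadjusted p = 0.0226, edgeR adjusted p = 0.922). With mouse 31 counted as salmon filet it was -0.23 (unadjusted p = 0.0946 by edgeR). Fishmeal lay between, at 386, 414, 454, 392.2 and 435 CPM (mice 12, 13, 14, 16 and 20; 416 ± 28.7), and did not pass the test against either (log2 fold changes 0.14 and -0.16, edgeR adjusted p = 0.926 and 0.999).

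Apoa5 was also lower in salmon filet than in beef in its mean without passing the test. It was at 572, 610, 714, 589 and 580 CPM in salmon filet (mice 22, 23, 25, 26 and 27) and 669, 492.6, 911, 898 and 956 in beef (mice 31, 32, 35, 39 and 40). Mice 31 and 32 reached into or below the salmon filet values, and the other beef mice lay above them. The log2 fold change was -0.35 (95% interval -0.72 to 0.02, unadjusted p = 0.0619, edgeR adjusted p = 0.922). Its unadjusted edgeR p was 0.0418 with mouse 31 as labelled (-0.38) and 0.00113 with the offsets (-0.45). It was 0.00652 without mice 32 and 35, the libraries of these groups with a strong GC trend (-0.46). The adjusted p was at least 0.819 in each. Leaving out these mice removed mouse 32, the lowest beef mouse in Apoa5. The offsets and this leaving out were chosen after the data were seen.

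**Figure D3:**
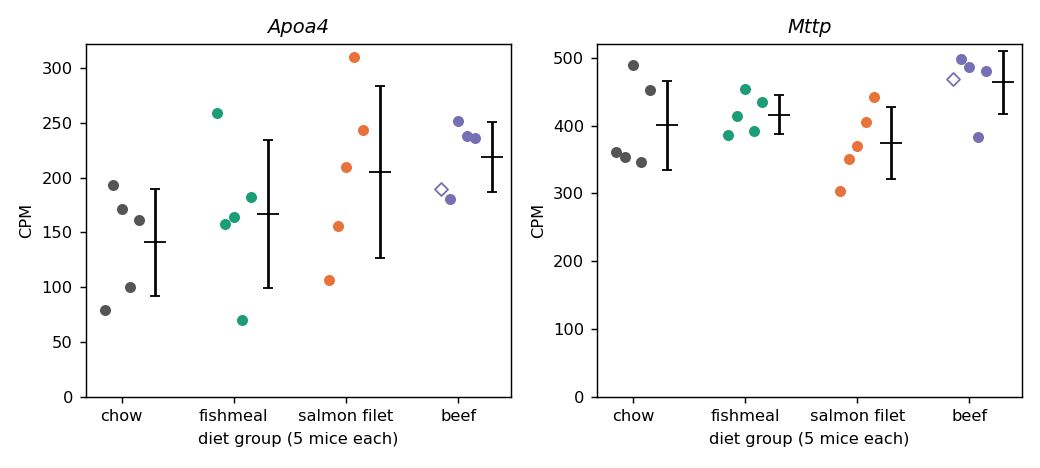
CPM of Apoa4 and Mttp in each mouse by diet group, with the mean and SD of the 5 mice beside the points; the open diamond is mouse 31, beef by its column and salmon filet by its label. Apoa4 runs from 69.9 to 310 CPM and Mttp from 304 to 499 CPM, and the groups overlap in both.

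The spread between mice of the same diet differed among the genes. The pooled within-group SD of log2 CPM was 0.17 for Apob, 0.18 for Mttp and 0.21 for Apoa2, near the median of 0.21 over 1234 protein coding genes of mean CPM at least 100. It was 0.25 for Apoc1, 0.37 for Apoc3, 0.38 for Apoa5, 0.47 for Apoa1, 0.51 for Apoe and 0.55 for Apoa4, and of those 1234 genes 95.5% had a smaller SD than Apoa4. Highest and lowest mouse differed 4.43-fold in Apoa4, 3.22-fold in Apoe, 3.14-fold in Apoa1 and 1.61-fold in Apob. Apoc2 differed 6.18-fold, from 1.30 CPM in mouse 12 (fishmeal), where it had 77 counts, to 8.01 in mouse 26 (salmon filet). Its level is uncertain because of the exons shared with Gm44805, as stated above.

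Several members of wide spread were low in the same 3 libraries. Mice 1 (chow), 32 (beef) and 16 (fishmeal) were the lowest of all 20 in Apoa1, Apoa5, Apoc3 and Apoe. For Apoe these libraries had at most 7802 CPM and every other library at least 9454, and for Apoa1 at most 3768 against at least 4150. The same 3 libraries stood apart in a technical measure: genes of 57% GC were lower against genes of 45% GC than in the other libraries, with a log2 difference of -0.589, -0.485 and -0.396 in mice 1, 32 and 16. These libraries also had the highest mitochondrial shares of counts of all 20 (10.4%, 9.30% and 9.80%, with 8.75% in the next, mouse 7), and the part of either measure in the low levels was not tested. The GC trends of the other libraries ran from -0.215 (mouse 31) to 0.517 (mouse 35, beef). Apoa4 was low in mice 1 and 16 and not in mouse 32. Apoc1 (54.9% GC) was lowest in mice 1 and 32 (2165 and 2197 CPM, with 2225 in the next, mouse 31) and not low in mouse 16 (2888). Apoa2 (51.9% GC) was at 4695, 4040 and 4530 CPM in mice 1, 32 and 16, within its range in the other libraries. The 4 members that were lowest in all 3 have exons of 56.0% to 59.5% GC. Apoc2, with 56.5% GC, was not low there (6.02, 6.51 and 5.27 CPM in mice 1, 32 and 16). Its level is uncertain because 79.5% of its exon bases are shared with Gm44805. Apob (43.5% GC) and Mttp (45.9% GC) were not low in these libraries, and mouse 32 was the highest of all 20 for both. After the trends on GC content and length had been removed, the within-group SD was 0.27 in place of 0.51 for Apoe, 0.35 in place of 0.47 for Apoa1, 0.22 in place of 0.37 for Apoc3, 0.23 in place of 0.38 for Apoa5 and 0.46 in place of 0.55 for Apoa4. It was 0.17 in place of 0.25 for Apoc1 and 0.19 in place of 0.21 for Apoa2. It was 0.09 in place of 0.17 for Apob, 0.18 as before for Mttp and 0.62 in place of 0.50 for Apoc2. No member was called in HFD versus chow with the trend taken out or without the 4 libraries whose trend was beyond 0.3 either way.

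**Figure D4:**
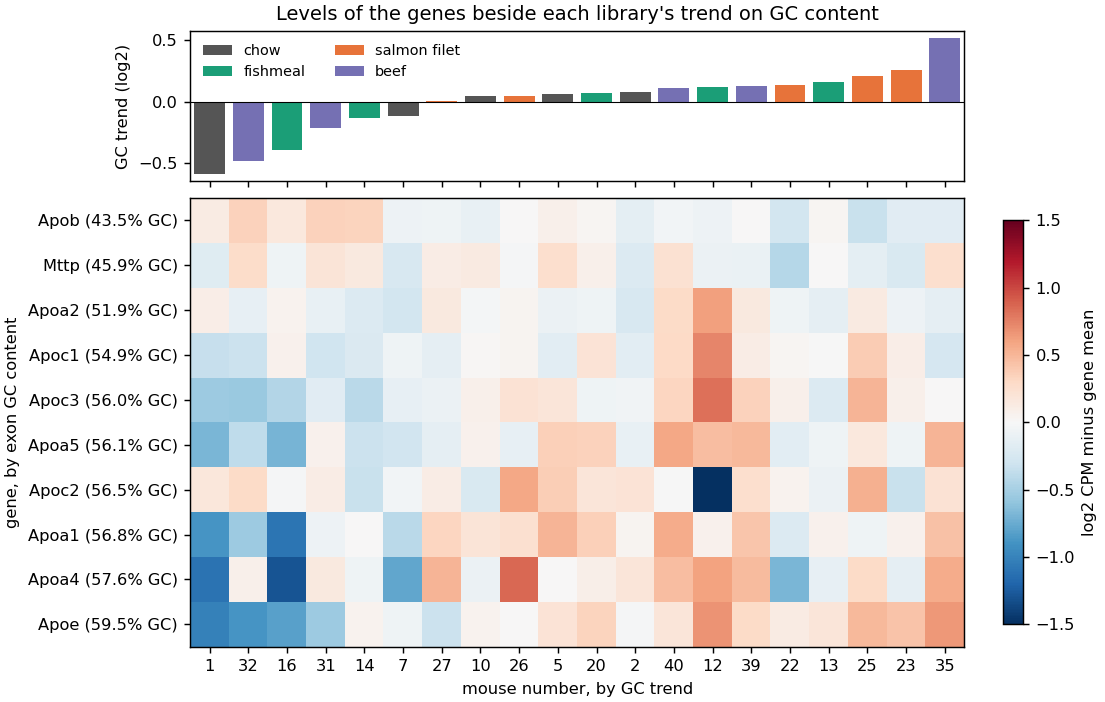
Above, each library's trend on GC content (log2 difference of genes at 57% GC from genes at 45% GC); below, log2 CPM of each gene minus its mean over the 20 libraries, with mice in the order of the trend and genes in the order of their exon GC content. Mice 1, 32 and 16 on the left, with trends of -0.589, -0.485 and -0.396, are low in Apoe, Apoa1, Apoa5 and Apoc3 and not in Apob; Apoc2 in mouse 12 lies beyond the colour scale.

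Clock genes, whose transcripts cycle over the day, also differed between the diets. The time of day at killing is not given in the sources used here, so diet and time of killing cannot be told apart. Of 8 clock genes high late in the light phase 7 were higher in HFD than in chow, with log2 fold changes such as 4.70 for Dbp, 3.29 for Ciart, 2.62 for Per3, 1.80 for Tef, 1.71 for Nr1d1 and 1.58 for Nr1d2. Of 4 genes high late in the dark phase 1, Clock, was lower (-0.45). A score of the late dark phase genes minus the late light phase genes ran from 1.07 to 2.97 in chow and from -3.70 to 2.22 in HFD. With this score as a covariate the log2 fold change in HFD versus chow was 0.26 for Apoa4 (edgeR adjusted p = 0.825), -0.26 for Apoa1, -0.20 for Apoa5 and -0.17 for Apoe, none of them called. Of 8 fasting genes 1, Pdk4, was lower (-1.29). The score itself differed between chow and HFD, so a fit with it as a covariate cannot separate clock phase from diet. The part of the clock phase in the levels of the members was not tested beyond this covariate.

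The genes whose log2 CPM was most like that of Apoa4 over the 20 libraries were Tlr12 (Pearson r = 0.870), Tmem43 (0.838), Vps11 (0.812), Fam73b (0.812) and Tmem110 (0.802), out of 11564 protein coding genes. These values describe libraries that also share their trends on GC content.

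Other genes of lipoprotein biology were grouped in 4 lists, in which 12 genes were called in HFD versus chow, and their counts are read beside the 9.75% of all genes called. Of 17 further apolipoprotein genes tested, of 21 listed, 3 were higher and 0 lower: Saa1, Saa2 and Saa4, serum amyloid A proteins that travel on HDL. Saa4 was at 467 ± 157 CPM (SD, n = 15) in HFD and 243 ± 46.2 (n = 5) in chow (log2 fold change 0.95 ± 0.20 SE, edgeR adjusted p = 0.00415), above the chow mean in 15 of 15 mice. Saa1 (log2 fold change 2.71, edgeR adjusted p = 0.0296) and Saa2 (3.08, 0.0217) varied more, from 16.4 to 1400 and from 10.9 to 1110 CPM over all mice. They are close copies of each other, so their separate levels are uncertain. Their calls were lost in 4 and 3 of the 20 fits that left out 1 mouse, with the highest edgeR adjusted p without chow-fed mouse 1 (0.0886 and 0.0671). The median over the 17 was 0.12, and Apom (-0.21), Apof (0.24) and Apoh (0.05) did not pass the test. In the separate protein sources against chow, the largest log2 fold change of this list was 4.01 in salmon filet, 2.11 in fishmeal and 2.3 in beef. The salmon filet mice were uneven, with the list summing to 4753 to 9755 CPM around a median of 5241. Saa2 was the only gene of the list called there, and its call was lost in 7 of the 10 fits that left out 1 mouse.

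Of 26 genes of VLDL assembly and secretion 2 were higher and 2 lower, with a median log2 fold change of 0.08. Dgat2, which makes triglyceride for VLDL, was higher (339 ± 76.8 against 229 ± 44.0 CPM; log2 fold change 0.56, edgeR adjusted p = 0.0259), and so was Smlr1 (0.30, edgeR adjusted p = 0.00645). Sort1, a sorting receptor that binds ApoB, was lower (9.73 ± 2.33 against 16.2 ± 4.37 CPM; -0.73, edgeR adjusted p = 0.00834), as was Tmem41b (-0.29, edgeR adjusted p = 0.0428), an endoplasmic reticulum protein. Creb3l3, a liver transcription factor kept in this list, was at 197 ± 50.3 and 153 ± 62.2 CPM (0.36, edgeR adjusted p = 0.306). Of the 20 fits that left out 1 mouse, the call was lost in 12 for Tmem41b (edgeR adjusted p up to 0.231, without mouse 1), in 3 for Dgat2 (up to 0.107, without mouse 1) and in 1 for Sort1 (0.0538, without mouse 2). Tmem41b also lost it in 5 of 10 other settings. Of 16 lipases, remodelling proteins and their regulators 0 were called by edgeR, with 4 at an unadjusted p under 0.05 and a median of -0.01.

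Of 26 transcription factors of apolipoprotein genes 5 were higher and 0 lower in HFD versus chow, with a median of 0.20. Srebf1, which drives fatty acid synthesis genes, was at 312 ± 76.7 CPM in HFD and 116 ± 16.6 in chow (log2 fold change 1.42, edgeR adjusted p = 2.22e-05), above the chow mean in 15 of 15 mice. The others were Nr1d1 (1.71, edgeR adjusted p = 0.0476), also a clock gene above, Ppara (0.85, 0.0288), the sensor of fatty acids, Cebpa (0.48, 0.0297) and Nr5a2 (0.33, 0.00406). Of the 20 fits that left out 1 mouse, the call was lost in 14 for Nr1d1 and in 3 each for Ppara and Cebpa, with the highest edgeR adjusted p without mouse 7 (0.137, 0.108 and 0.103). Hnf4a, a main activator of the apolipoprotein genes in liver, was at 571 ± 73.3 and 615 ± 53.7 CPM (-0.11, edgeR adjusted p = 0.507). With the clock score as a covariate Srebf1 was still called (1.04) and the other 11 called genes of these lists were not. Without the 4 libraries with a strong GC trend 5 of the 12 were called. Hnf4a, Creb3l3, Apom, Apof and Apoh were named after their values were seen.

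**Figure D5:**
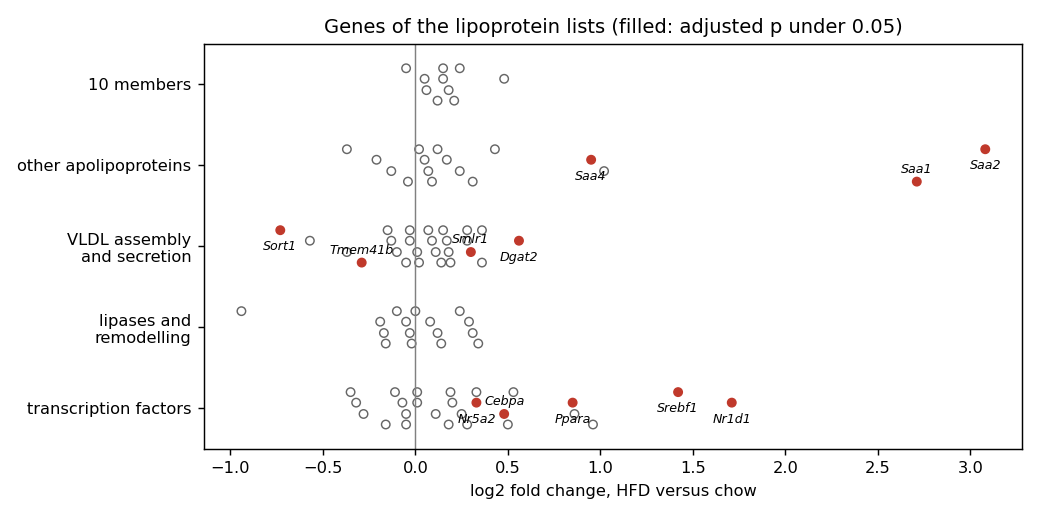
Log2 fold change in HFD versus chow for each tested gene of the 10 members and of the 4 lipoprotein lists; filled points passed the test (edgeR adjusted p under 0.05) and are named. The 10 members lie between -0.05 and 0.48 with none filled, beside Saa1, Saa2, Saa4, Srebf1 and the other called genes.

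In the separate protein sources against chow, Srebf1 was called higher in each of the 3 comparisons. Saa2 was higher in each, and Saa1 and Saa4 were higher in fishmeal and in beef. Pltp, the phospholipid transfer protein of HDL, was lower in fishmeal than in chow (25.0 ± 10.6 against 77.5 ± 29.9 CPM; -1.65, edgeR adjusted p = 0.0131). Smlr1, Cebpa and Nr5a2 were higher in salmon filet than in chow, and Nr5a2 and Ppara in beef. These calls, and those of Saa2 in salmon filet and of Saa1 and Saa2 in beef, were each lost in at least 4 of the 10 fits that left out 1 mouse.

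Markers of other cell types were checked beside these values. The 10 hepatocyte markers summed to 113900 to 152700 CPM in HFD and 123900 to 146300 in chow, with 0 called and 1 at an unadjusted p under 0.05. Apoa4 and Mttp are also made by enterocytes, whose defining markers Sis, Alpi and Cdx2 were at 0 counts in all 20 libraries, while Lct had at most 5 counts and Cdh17 at most 3. Of the 3 of 8 enterocyte markers tested, Fabp2, a fatty acid binding protein, was higher (121 ± 22.1 against 52.2 ± 13.9 CPM; log2 fold change 1.21, edgeR adjusted p = 5.63e-05). The other tested markers did not pass the test (Vil1 -0.53, Slc5a1 -0.01). The 8 markers summed to 35.9 to 70.2 CPM in chow and 76.8 to 147 in HFD, nearly all of it Fabp2. Of 10 Kupffer cell markers 0 were called (253.9 to 526.1 CPM in HFD, 271 to 601 in chow), with 2 at an unadjusted p under 0.05, and of 6 stellate cell markers 0, with 0 unadjusted. The lymphocyte markers Cd79a, Cd79b and Cd3d were lower (log2 fold changes of -1.40, -1.08 and -1.01), and Sox9 of the cholangiocyte list (-0.61), Clec4g of the endothelial list (-0.29) and Alas2 of the red blood cell list (0.71) were called. The adipocyte markers had at most 0.216 CPM in sum and none was tested. The part of these cell types in the levels of the members was not tested.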

How the data were processed

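Liver RNA of 20 mice was sequenced from strand-specific mRNA libraries. By the study's methods and the submitters' processing notes, the authors trimmed reads with BBDuk, mapped them with HISAT2 1.2.1 and counted them per gene with featureCounts 1.4.6-p1. The deposited files hold raw counts per Ensembl gene and, in a second table, TPM computed by the authors, which equal counts per length to within 6.3e-07%. The build is printed as GRCh38 for these mouse data, so positions and exon overlaps come from GENCODE M21 on GRCm38, in which 55227 of 55487 identifiers were found.

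Groups followed the column names of the count table. Counts were tested with edgeR 4.0 in R 4.3 (TMM factors, genes kept by filterByExpr with its minimum count set to 10, two-sided quasi-likelihood F-test, Benjamini-Hochberg adjustment over all genes tested, called at an adjusted p under 0.05), on the 2 groups compared. CPM used a prior count of 2 on the log scale. TPM served for levels and, on the log2(TPM + 1) scale for genes averaging 0.5 TPM or more, for limma 3.58. DESeq2 1.42 was a further alternative. The script was tested on simulated data. The trend on GC content and length was a spline fit per library over genes of mean CPM at least 1. Replicates are separate mice. Counting error is small at these depths, and intervals cover the spread between mice.

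The members, motifs and lists were chosen with earlier results of these data known. The text names all members, the called genes of each list (the 6 with the largest change where more were called), called list genes of the other comparisons, genes whose exons overlap a member's, and the 5 genes most like the member with the smallest p in HFD versus chow. Some results of the lists are not reported here.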

Additional observations from a re-analysis of the deposited data

Results flagged for a closer look

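In 4 cases, in the fishmeal, salmon filet and beef groups of 5 mice each, 1 mouse lay far from the others of its group in a member's level by Dixon's criterion. Mouse 12 (fishmeal) had 6719 CPM of Apoa2, where the other fishmeal mice had 3806 to 4530, and 1200 CPM of Apoc3, where they had 497 to 646. Mouse 25 (salmon filet) had 713.7 CPM of Apoa5, where the others had 572 to 610. Mouse 39 (beef) had 383.2 CPM of Mttp, where the others had 469 to 499. In mouse 35 (beef) protein coding genes took 84.34% of counts, against 93.16% to 94.24% in the other beef mice. Of 56 groups and measures checked, chance alone is expected to mark about 1 in 20.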

How the results depend on the processing

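DESeq2, GC and length offsets and leaving out 1 mouse were run in all 7 comparisons. So was leaving out those of the 4 libraries with a strong GC trend that a comparison held. Groups as labelled were run in the 5 with salmon filet or beef, and the other settings in HFD versus chow only. No member was called in these runs, except Apoa4 in beef versus chow with the offsets (1 member called). The offsets outside HFD versus chow, and leaving out the libraries with a strong GC trend, were added after the data were seen. In salmon filet versus chow the latter left out only mouse 1, and in fishmeal versus salmon filet only mouse 16. Those fits are the same as the ones that left out these mice singly. The number of all genes called in HFD versus chow was 2574 with the offsets and 314 with the clock score as covariate (1669 as reported). It was 1175 with DESeq2 and 1068 with the offsets in fishmeal versus chow (556), 1748 with DESeq2 in salmon filet versus chow (728), and 1184 with DESeq2, 1108 with the offsets and 287 without the libraries with a strong GC trend in beef versus chow (499). It was 98 with DESeq2 in fishmeal versus salmon filet (28), and 35 with DESeq2, 1 with groups as labelled, 9 with the offsets and 0 without the libraries with a strong GC trend in fishmeal versus beef (4). In salmon filet versus beef DESeq2 called 6 (0). Of the 4 lipoprotein lists 23 genes were called with the offsets, 1 with the clock score and 5 without the libraries with a strong GC trend (12). The cause of these shifts was not tested.

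Leaving out 1 mouse at a time gave 986 (without chow mouse 1) to 1939 genes in HFD versus chow, 288 (without fishmeal mouse 14) to 685 in fishmeal versus chow, 208 (without chow mouse 7) to 641 in salmon filet versus chow, 198 (without chow mouse 2) to 445 in beef versus chow, 14 to 41 in fishmeal versus salmon filet, 1 to 4 in fishmeal versus beef and 0 to 2 in salmon filet versus beef, 4 to 15 genes of the lists, and 0 members throughout. By CPM in place of TPM the ranks were Apoe 1, Apob 2, Apoa2 4, Apoc1 5, Apoc3 6, Mttp 8 and Apoa4 9. Some small differences changed sign. With the clock score, HFD versus chow was -0.26 for Apoa1, -0.20 for Apoa5, -0.03 for Apoc3, -0.17 for Apoe, -0.04 for Mttp, -0.13 for Ciart and -0.27 for Per3. Apob was -0.01 by limma on TPM and Mttp -0.01 without the libraries with a strong GC trend. Leaving out 1 mouse gave -0.03 to 0.30 for Apoa1 and -0.13 to 0.02 for Apoc2 in HFD versus chow. The log2 fold change of Mttp in fishmeal versus chow ran from -4.2e-05 (without mouse 7) to 0.14, and that of Apoa4 in salmon filet versus beef from -0.29 to 0.07. No paired analysis was possible because the mouse numbers are not shared between groups.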
